A study of Mus musculus with 2 samples.

Results

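Endothelial cells of the mouse embryo were taken from single-cell RNA counts of pooled caudal tissue of C57BL/6J embryos, labelled wild type, at embryonic day 8.5. The data came from 2 libraries, replicates 1 and 2, made with a 10x Genomics 5′ kit from tissue dissociated with TrypLE. The labels name 1 group with no treatment and list endoderm, mesoderm and ectoderm as the cell types, and the series title concerns neuromesodermal progenitors. They do not say whether the replicates came from separate pools of embryos, so p-values of the comparisons between classes measure only the spread between these libraries. A barcode was kept with at least 2000 unique molecular identifiers (UMIs), at least 1000 genes and a mitochondrial share of 0.3% to 10%. A kept barcode was called endothelial with at least 3 UMIs of Cdh5, Pecam1 and Tek together and less than 2% of UMIs from the embryonic globins Hba-x, Hbb-bh1 and Hbb-y. This gave 753 endothelial barcodes of 19550 kept, with 469 of 11228 in replicate 1 and 284 of 8322 in replicate 2. The share was 4.18% in replicate 1 (95% exact binomial interval 3.81% to 4.56%) and 3.41% in replicate 2 (3.03% to 3.83%), and these intervals cover counting error only. The share also moved with the limits. It was 2.93% and 2.14% with at least 6 UMIs of Cdh5, Pecam1 and Tek, and 2.30% and 2.17% with mitochondrial shares from 0% to 10%. With at least 2 UMIs it was 5.50% and 6.38%, which put replicate 2 above replicate 1.

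Endothelial cells line blood vessels. In the mouse embryo they arise from mesoderm that expresses the VEGF receptor Kdr, and the ETS factor Etv2 is required for that step. Early vessels then divide into arteries, in which Notch signalling through Dll4 is active, and veins, in which the nuclear receptor Nr2f2 acts. Some endothelium, called haemogenic, gives rise to blood cells through the transcription factor Runx1.

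The selecting genes encode VE-cadherin (Cdh5), the adhesion molecule PECAM-1 (Pecam1) and the angiopoietin receptor TIE2 (Tek), and the cells were chosen by their UMI counts, so these values are a description. Endothelial barcodes held a median of 10 UMIs of these genes in replicate 1 and 7 in replicate 2, with a highest value of 42 and 37. Cdh5 was detected in 77.4% and 83.1%, Pecam1 in 82.9% and 78.2% and Tek in 87.2% and 77.8% of endothelial barcodes of replicates 1 and 2. Just inside the limit, 70 barcodes of replicate 1 and 49 of replicate 2 held 3 such UMIs, and 54.3% and 57.1% of these had a Kdr UMI. Just outside it, 149 and 247 barcodes held 2 UMIs, and 49.7% and 23.1% of these had a Kdr UMI. Kdr, another endothelial marker that took no part in the selection, was found in 84.9% and 87.0% of endothelial barcodes. The label held against this marker for most of the barcodes, while in replicate 1 the shares just inside and just outside the limit lay close together.

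**Figure D1:**
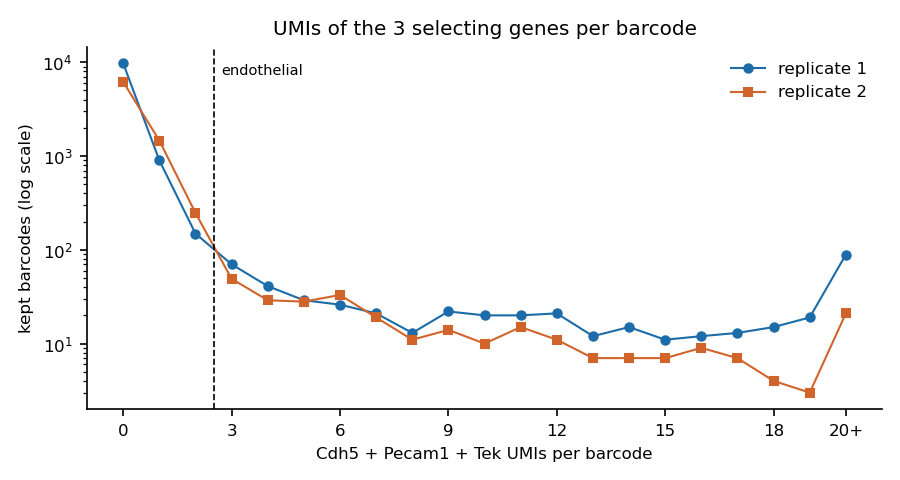
Number of kept barcodes with less than 2% globin UMIs (vertical axis, log scale) by their summed UMIs of Cdh5, Pecam1 and Tek (horizontal axis, 20 and above joined) in replicate 1 (circles) and replicate 2 (squares). The dashed line is the limit for endothelial barcodes: 70 and 49 barcodes lie at 3 UMIs, against 149 and 247 at 2 UMIs.

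Endothelial barcodes were deeper than the rest, with a median of 24745 UMIs in replicate 1 and 15699 in replicate 2, against 17586 and 13633.5 in other kept barcodes. Scrublet called 18.6% and 5.63% of endothelial barcodes doublets, against 8.69% and 3.0% of other barcodes, and these calls were left in. The libraries shared 114 kept barcode sequences and 0 endothelial ones. Marker lists of 13 other cell types were summed in each class. The endoderm list of 6 genes summed to 78.9 and 56.6 UMIs per 1000000 (CPM) in endothelial barcodes, against 486 and 210 CPM in others. The presomitic list of 5 genes summed to 63.2 and 63.9 CPM, against 332 and 342 CPM. The lateral plate list of 5 genes stood closer, at 312 and 152 CPM in endothelial barcodes, against 256 and 251 CPM in others. The surface ectoderm list of 5 genes, at 498 and 158 CPM against 527 and 267 CPM, was nearly level in replicate 1. The notochord gene Foxj1 was at 0 in endothelial barcodes of both libraries, the somite gene Pax1 and the yolk sac gene Apob were at 0 in those of replicate 2, and all other markers had UMIs. The part of doublets or free RNA in the results was not tested.

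Promoters of the genes that led the comparison with other barcodes were read for the letters of an ETS core, since Etv2, Erg and Fli1 belong to that family. RefSeq windows from 250 bases before to 50 after the start (GRCm38.p6) were at hand for 9 of the 15 leading genes. The letters AGGAAG, on either strand as AGGAAG or CTTCCT, stood in 6 of these 9 windows (Gja5, Emcn, Tie1, Gimap1, Ctla2b and Ctla2a) and in 35.1% of all 27025 gene windows. The windows of Dll4, Clec1b and Erg did not hold these letters. Of the windows with a match, Tie1 (chr4:118489800-118490099, minus strand), Emcn (chr3:137340828-137341127, plus strand) and Gja5 (chr3:97032152-97032451, plus strand) are shown, since the results below return to these genes. Matching letters are in capitals. A match describes these letters only.
Tie1: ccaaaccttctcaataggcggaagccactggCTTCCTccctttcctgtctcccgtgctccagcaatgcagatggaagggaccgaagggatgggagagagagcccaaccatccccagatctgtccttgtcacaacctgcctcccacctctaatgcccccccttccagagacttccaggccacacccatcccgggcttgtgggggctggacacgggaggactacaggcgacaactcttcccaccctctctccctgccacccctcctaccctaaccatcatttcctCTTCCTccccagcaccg
Emcn: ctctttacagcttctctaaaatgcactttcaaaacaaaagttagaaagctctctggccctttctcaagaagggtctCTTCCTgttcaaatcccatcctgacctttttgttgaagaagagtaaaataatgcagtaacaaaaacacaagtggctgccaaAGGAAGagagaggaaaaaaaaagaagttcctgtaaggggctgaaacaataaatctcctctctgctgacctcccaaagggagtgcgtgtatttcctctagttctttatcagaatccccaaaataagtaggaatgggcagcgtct
Gja5: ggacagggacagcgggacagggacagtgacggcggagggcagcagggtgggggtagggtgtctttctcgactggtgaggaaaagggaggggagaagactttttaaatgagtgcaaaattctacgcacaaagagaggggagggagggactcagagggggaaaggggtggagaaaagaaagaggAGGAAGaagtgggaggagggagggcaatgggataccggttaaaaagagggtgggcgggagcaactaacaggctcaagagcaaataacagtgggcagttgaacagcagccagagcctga

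Summed UMIs per class and library were compared as CPM, and fold changes are log2 values of endothelial over other kept barcodes with their standard error (SE). Of 16106 genes tested, 2660 were higher (16.5%) and 2323 lower (14.4%, 30.9% in either direction) in endothelial barcodes at an adjusted p under 0.05 (edgeR's quasi-likelihood test, Benjamini-Hochberg adjustment, n = 2 libraries). The selecting genes and the embryonic globins took no part in this test, but every other gene was counted in the same barcodes that those genes had picked. Without library as a block the counts were 1016 and 442.

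All 7 tested receptors of the VEGF and angiopoietin list were higher in endothelial barcodes, with a median log2 fold change of 4.47 against -0.07 over all genes tested. Kdr, the main signalling receptor for VEGF-A, had 257 and 465 CPM in endothelial barcodes of replicates 1 and 2, against 30.6 and 31.3 CPM in other barcodes (3.58 ± 0.16, adjusted p = 1.58e-06). Flt1, which binds VEGF-A and limits its signal, had 138 and 146 CPM against 4.92 and 2.17 CPM (5.47 ± 0.24, adjusted p = 1.71e-06). Tie1, the orphan partner of TIE2, had 124 and 109 CPM against 0.542 and 0.259 CPM (8.24 ± 0.17, adjusted p = 4.74e-08). Endothelial and other barcodes did not overlap between libraries for any of these 3 genes. Here and below, the share of all tested genes without overlap was not counted. A lack of overlap therefore describes the named genes only. The VEGF-C receptor Flt4 was also higher (5.68 ± 0.16), and the co-receptors Nrp1 and Nrp2 were higher by less (1.46 ± 0.11 and 1.1 ± 0.08). Among the 7 receptors the difference was largest for Tie1.

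After thinning each barcode to 5000 UMIs, Kdr was detected in 60.9% and 76.3% of endothelial barcodes, against 8.16% and 7.07% of others. At the same depth Flt1 was detected in 43.5% and 48.5%, against 2.02% and 1.00%, and Tie1 in 40% and 38%, against 0.230% and 0.135%. UMIs of all 3 receptors were thus found outside the endothelial barcodes at this depth, in a minority of them.

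The ligands moved little. Of 7 tested, Vegfc, the ligand of Flt4, was higher in endothelial barcodes, with 9.57 and 13.5 CPM against 3.63 and 4.38 CPM (1.60 ± 0.20, adjusted p = 0.000505). Vegfb was lower, at 81.3 CPM in both libraries against 104 and 112 CPM (-0.30 ± 0.08, adjusted p = 0.0221). Vegfa had 24.6 and 19.1 CPM in endothelial barcodes and 31.5 and 33.7 CPM in others, a difference that missed the threshold (-0.45 ± 0.15, adjusted p = 0.0542) and passed it with RLE scaling (adjusted p = 0.0410), without a filter on low counts and with at least 6 UMIs of the selecting genes. The angiopoietin genes Angpt1 and Angpt2 did not pass the test, at 0.23 ± 0.36 and 0.37 ± 0.21.

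Of 21 endothelial transcription factors, 19 were higher in endothelial barcodes and 0 were lower, with a median log2 fold change of 3.75. Etv2 had 44.1 and 65.9 CPM in endothelial barcodes, against 16.7 and 12.9 CPM in others (1.95 ± 0.18, adjusted p = 0.000114). Erg, an ETS factor that maintains endothelial identity, had 46.5 and 55.9 CPM against 0.281 and 0.517 CPM (7.17 ± 0.21, adjusted p = 1.72e-07). Endothelial barcodes lay above others in both libraries for both genes. At 5000 UMIs Etv2 was detected in 15.2% and 20.4% of endothelial barcodes, against 5.55% and 4.23% of others. The ETS factor Fli1 was higher by 5.25 ± 0.11, and the SOXF factors Sox7, Sox17 and Sox18, which act in vascular development, by 5.45 ± 0.12, 2.65 ± 0.39 and 5.69 ± 0.08. Of the factors shared by blood and endothelium, Tal1 was higher by 3.80 ± 0.14, Lmo2 by 2.14 ± 0.08 and Gata2 by 3.30 ± 0.22. Klf4 and Tcf4 did not pass the test, with log2 fold changes of 0.63 ± 0.52 and 0.16 ± 0.09.

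Among 22 surface and junction genes, 20 were higher and 1 was lower. The tight junction protein Cldn5 had 142 and 270 CPM in endothelial barcodes, against 1.1 and 3.78 CPM in others (6.65 ± 0.21, adjusted p = 2.84e-07). Esam, a junctional adhesion molecule, had 242 and 244 CPM against 2.76 and 2.02 CPM (6.76 ± 0.11), and the CD34 antigen gene had 191 and 181 CPM against 2.45 and 1.54 CPM (Cd34, 6.64 ± 0.13). Emcn, a sialomucin of the luminal surface, had 39.8 and 87.0 CPM against 0.184 and 0.490 CPM (7.69 ± 0.17). The groups stood apart in both libraries for all 4 genes. Gja1, the gap junction protein connexin 43, was the lower gene, with 85.1 and 112 CPM against 190 and 201 CPM (-0.91 ± 0.08, adjusted p = 6.08e-05). Of 14 signalling and cytoskeleton genes, 13 were higher. Egfl7, a secreted vascular protein, had 626 and 695 CPM against 43.3 and 45.3 CPM (3.99 ± 0.09). The adrenomedullin receptor subunits Ramp2 and Calcrl were higher by 5.31 ± 0.13 and 4.72 ± 0.14.

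**Figure D2:**
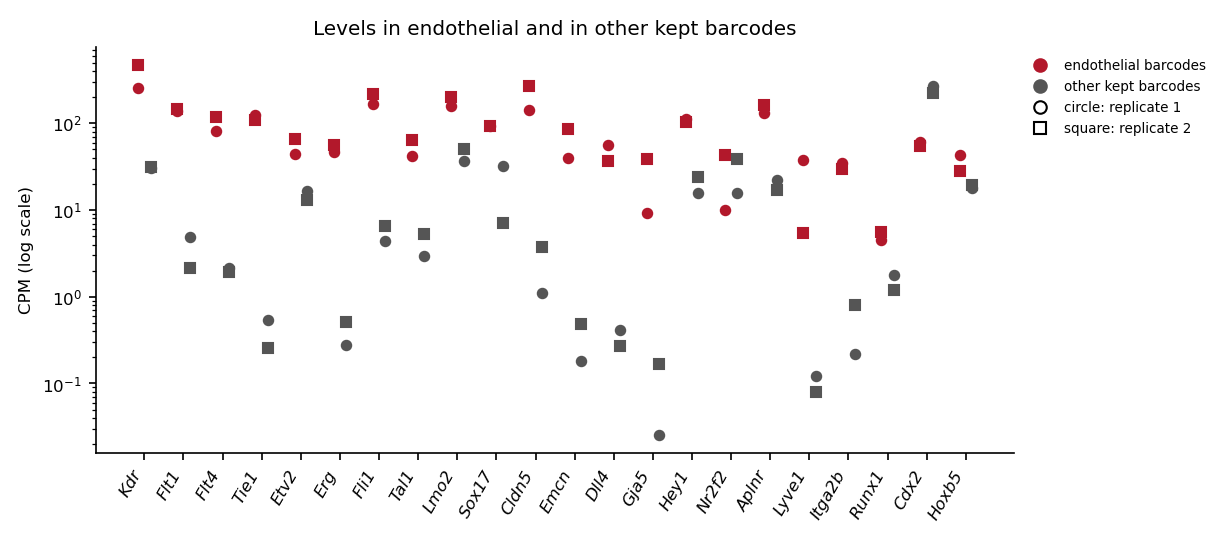
CPM (vertical axis, log scale) of 22 genes in endothelial barcodes (red, left of each pair) and other kept barcodes (grey, right), in replicate 1 (circles) and replicate 2 (squares). Kdr, Tie1, Erg and Cldn5 lie above the other barcodes in both libraries, Cdx2 lies below them, and Nr2f2 differs more between libraries than between classes.

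Of 17 arterial and Notch genes tested, 12 were higher and 2 lower, with a median of 1.43. Dll4, the arterial Notch ligand, had 56.2 and 36.8 CPM in endothelial barcodes, against 0.414 and 0.268 CPM in others (7.20 ± 0.16, adjusted p = 6.86e-08). The connexin genes Gja4 and Gja5 were higher by 6.63 ± 0.22 and 8.09 ± 0.31. The receptors Notch1 and Notch4 were higher by 1.43 ± 0.10 and 3.48 ± 0.19, the Notch target Hey1 by 2.61 ± 0.18 and the ephrin Efnb2 by 1.2 ± 0.10. The lower genes were Dll1, the Notch ligand of presomitic mesoderm, with 10.3 and 16.3 CPM against 72.2 and 69.9 CPM (-2.39 ± 0.15), and the chemokine receptor Cxcr4 (-0.99 ± 0.23, adjusted p = 0.0131).

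Of 10 venous and lymphatic genes tested, 6 were higher and 1 lower. The apelin receptor Aplnr had 132 and 161 CPM in endothelial barcodes, against 22.2 and 17.0 CPM in others (3.0 ± 0.13, adjusted p = 1.43e-06). Nr2f2 had 9.99 and 43.5 CPM in endothelial barcodes and 15.6 and 39.0 CPM in others, with no difference that passed the test (-0.13 ± 0.17, adjusted p = 0.617). Its levels followed the library and not the class. Nr2f1, its paralogue, was lower (-1.78 ± 0.27). Lyve1, a hyaluronan receptor used as a lymphatic and early venous marker, had 37.9 CPM in endothelial barcodes of replicate 1 and 5.44 CPM in those of replicate 2, against 0.123 and 0.0803 CPM in others (7.85 ± 0.45, adjusted p = 6.51e-06). It was detected in 6.81% and 2.55% of endothelial barcodes at 5000 UMIs, so few barcodes held it in either library. Prox1, the lymphatic regulator, stayed at 2.91 and 3.26 CPM against 2.60 and 2.95 CPM.

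The haemogenic and blood progenitor list had 5 of 9 tested genes higher and 0 lower. Itga2b, the CD41 integrin of early blood progenitors, had 34.7 and 29.8 CPM in endothelial barcodes, against 0.220 and 0.812 CPM in others (6.30 ± 0.46, adjusted p = 2.63e-05). Runx1 had 4.58 and 5.66 CPM against 1.77 and 1.21 CPM (1.85 ± 0.33, adjusted p = 0.00370), and was detected in 2.64% and 2.92% of thinned endothelial barcodes, against 0.637% and 0.568% of others. Itga2b was detected in 16.5% and 11.7% of the same barcodes, against 0.125% and 0.311% of others. Spi1 was higher at a low level, with 7.91 and 3.48 CPM against 0.0358 and 0.0713 CPM (6.90 ± 0.66). Gata1, Gfi1b, Myb and Nfe2 did not pass the test.

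Of 9 erythroid genes tested, 5 were lower and 0 higher. The rule kept barcodes with at least 2% embryonic globin UMIs out of the endothelial class and left them among the others. Lower erythroid genes are therefore not independent of the selection, and their p-values are no separate support. Adult alpha globin Hba-a1 had 0.666 and 0.870 CPM in endothelial barcodes, against 4.25 and 79.4 CPM in others (-4.93 ± 0.53, adjusted p = 0.000236). Most of that difference lay in replicate 2, which held 153 barcodes with at least 2% embryonic globin UMIs, against 0 in replicate 1. In replicate 2 a Hba-x UMI was found in 35.9% of endothelial barcodes before thinning and in 31.2% of others, a like share in both classes, and at 5000 UMIs in 10.6% and 14.2%.

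The matrix list had 11 of 15 genes higher and 1 lower, with a median of 1.65. The basement membrane collagens Col4a1 and Col4a2 were higher by 1.52 ± 0.10 and 1.81 ± 0.11, and the linker protein nidogen 1 by 4.2 ± 0.08 (Nid1, 135 and 155 CPM against 8.23 and 8.63 CPM). Sparc, a collagen-binding protein, had 667 and 563 CPM against 112 and 66.5 CPM (2.92 ± 0.12). Fibronectin (Fn1) had 753 and 1327 CPM against 313 and 371 CPM (1.65 ± 0.12). Laminin chains were split: Lama4, the chain of endothelial basement membranes, was higher (3.42 ± 0.19), Lama5 was lower (-1.06 ± 0.13), and Lama1 and Lamc1 had log2 fold changes of -0.01 ± 0.12 and -0.13 ± 0.09 that did not pass the test.

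Signalling genes went both ways. In the BMP and TGF-beta list of 18 genes, 8 were higher and 4 lower. The endothelial receptor pair Eng and Acvrl1 was higher by 5.55 ± 0.13 and 3.74 ± 0.13, Tgfb1 by 3.55 ± 0.09 and Bmp2 by 2.29 ± 0.11, while Bmp7 (-1.66 ± 0.18) and the target genes Id1 and Id2 (-0.70 ± 0.07 and -1.64 ± 0.11) were lower. In the peptide, chemokine and lipid list of 15, 7 were higher and 6 lower. The sphingosine 1-phosphate receptor S1pr1 had 39.9 and 40.5 CPM against 0.619 and 0.669 CPM (6.07 ± 0.17), and its relative S1pr3 was lower (-1.39 ± 0.28). Both apelin peptides signal through Aplnr, but Apln was higher (2.32 ± 0.18) and Apela lower (-1.99 ± 0.12). Pdgfb, the ligand that recruits mural cells, was higher (5.53 ± 0.26), and the receptor Pdgfra was lower (-0.96 ± 0.11). In the guidance list of 15, 5 were higher and 5 lower. The semaphorin receptor Plxnd1 had 109 and 153 CPM against 2.54 and 4.42 CPM (5.37 ± 0.13), and the semaphorins Sema3a, Sema3c and Sema3e, some of which bind it, were lower (-1.5 ± 0.18, -1.74 ± 0.32 and -1.43 ± 0.15).

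Axial patterning genes were lower. Of 15 tested Hox genes of groups 1 to 5, 13 were lower and 1 was higher, with a median of -1.30, and of 18 of groups 6 to 13, 11 were lower and 0 higher, with a median of -1.02. The 3 Cdx genes were lower, and Cdx2 had 60.8 and 55.0 CPM in endothelial barcodes, against 268 and 222 CPM in others (-1.98 ± 0.07, adjusted p = 5.75e-07). Hoxb9 had 26.1 and 65.5 CPM against 106 and 172 CPM (-1.61 ± 0.12). Hoxb5 was the higher gene, with 43.5 and 28.1 CPM against 17.8 and 19.6 CPM (1.05 ± 0.19, adjusted p = 0.00407). Without library as a block, the adjusted p of Hoxb5 was 0.0782. Its groups did not overlap.

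Lateral plate transcription factors included 2 higher and 5 lower genes of 12. Hand1 had 191 and 67.2 CPM in endothelial barcodes, against 97.3 and 68.0 CPM in others, so that its call of higher (0.64 ± 0.21, adjusted p = 0.0486) rested on replicate 1. With at least 6 UMIs of the selecting genes Hand1 was lower, at -0.54, so its direction depends on where endothelial barcodes begin. Osr1 was lower, with 10.9 and 3.05 CPM against 47.4 and 35.4 CPM (-2.38 ± 0.25).

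Cell cycle genes were nearly level. Of 13 S phase genes 0 were higher and 2 lower, with log2 fold changes between -0.29 and 0.25 over the list, and of 14 G2 and M phase genes 3 were higher and 1 lower. Cdk1 had 316 and 288 CPM in endothelial barcodes, against 224 and 213 CPM in others (0.56 ± 0.08, adjusted p = 0.00106). Of 14 glycolysis genes 4 were higher and 1 lower. The lower one, the neuronal type glucose transporter Slc2a3, had 303 and 184 CPM against 728 and 467 CPM (-1.21 ± 0.09, adjusted p = 3.49e-05). The glucose transporter Slc2a1 was higher by 0.35 ± 0.09, and that call was lost with at least 6 UMIs of the selecting genes.

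**Figure D3:**
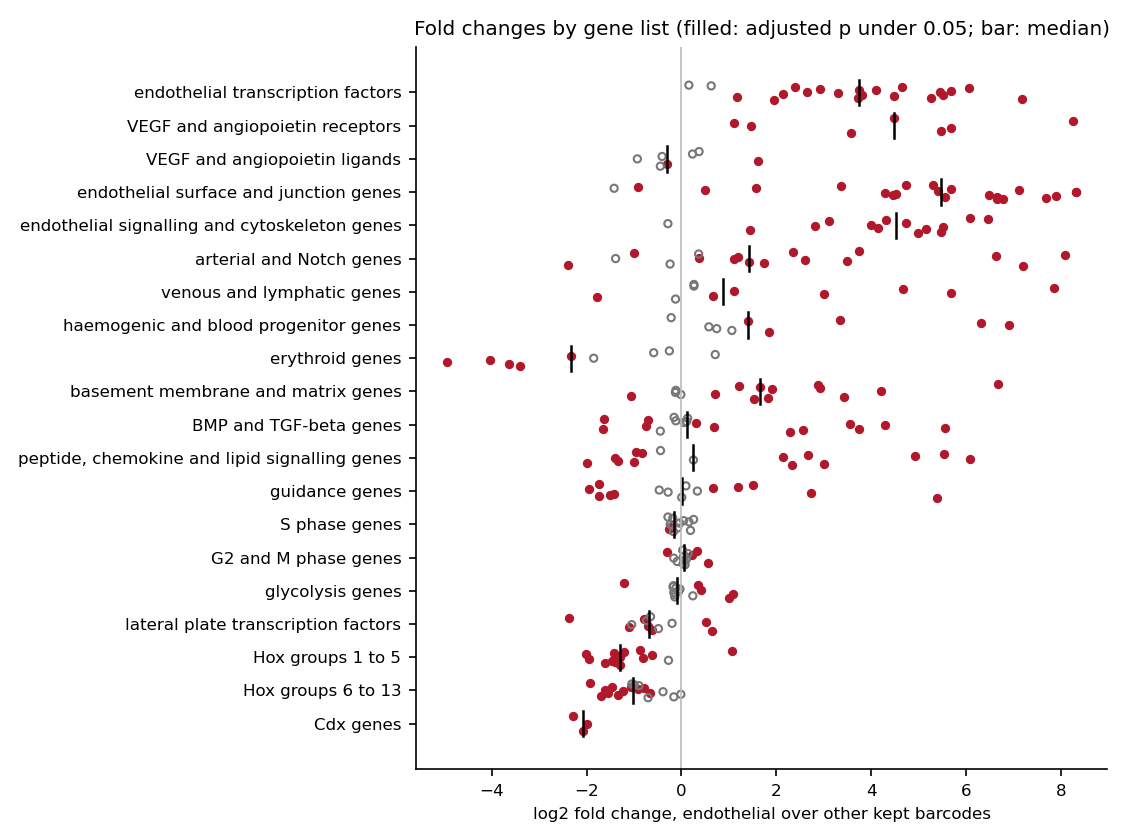
Log2 fold change of endothelial over other kept barcodes (horizontal axis) of every tested gene of the 20 lists (rows). Filled points passed an adjusted p of 0.05, open points did not, and the vertical bar is the list's median: endothelial surface genes lie mostly above 4, cell cycle genes near 0, and Hox and Cdx genes mostly below 0.

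The genes with the largest differences, taken by a rule of size among those with at least 20 CPM, were mostly known vascular genes. Cd93, a surface lectin of endothelium, led with 46.7 and 64.2 CPM in endothelial barcodes, against 0.148 and 0.232 CPM in others (8.30 ± 0.17, adjusted p = 4.74e-08). Ctla2a and Ctla2b, protease inhibitor-like genes, were higher by 7.90 ± 0.15 and 7.21 ± 0.21, but they are close paralogues and reads may be split between them. Icam2, Clec1b, Pcdh12, Gimap1 and Nos3, the endothelial nitric oxide synthase, were higher by between 6.93 and 7.88. The largest decreases after Hba-a1 were markers of endoderm and mesoderm. Nepn, a gut endoderm gene, had 3.33 and 5.87 CPM against 49.6 and 20.7 CPM (-3.01 ± 0.36), and Msgn1, a presomitic mesoderm factor, had 10.4 and 5.00 CPM against 53.9 and 56.5 CPM (-2.62 ± 0.22).

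Endothelial barcodes were then set beside 3 other gates of the same libraries: barcodes with at least 2% embryonic globin UMIs (153, all in replicate 2), barcodes with at least 2 Tbx4 UMIs (539 and 223), Tbx4 being a gene of the allantois, and barcodes with at least 2 Foxf1 UMIs and no Tbx4 (2348 and 1701), Foxf1 being a gene of lateral plate mesoderm. Endothelial and globin-gate barcodes were left out of the Tbx4 and Foxf1 gates. No barcode with at least 3 UMIs of the selecting genes could therefore enter these gates. The 3 comparisons share the endothelial sums. The globin gate has a single library, whose spread was assumed to equal that of the other classes, and 25.8% of its UMIs were embryonic globin. TMM scaling takes up part of that share, and with library as a block the sums of replicate 1 enter the fit as well. Fold changes against this gate can therefore lie below or above the plain ratio of CPM in replicate 2. Their median was 0.19 over all genes tested.

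Against the globin gate, 2849 of 14158 genes were higher (20.1%) and 2448 lower (17.3%, 37.4% in either direction). All 11 tested erythroid genes were lower in endothelial barcodes and 18 of 21 endothelial transcription factors were higher. Globin UMIs separate these 2 classes by definition, so the erythroid count is not independent of the gates. Blood and endothelium shared some regulators: Tal1 had 42.4 and 63.7 CPM in endothelial barcodes, against 90.7 CPM in the globin gate (-1.5 ± 0.50, adjusted p = 0.0485), and Lmo2 had 161 and 199 CPM against 77.4 CPM (0.81 ± 0.16, adjusted p = 0.00660). Both calls were lost without library as a block, that of Tal1 also with DESeq2 and with Scrublet calls removed, and that of Lmo2 with at least 2 UMIs of the selecting genes. Itga2b did not differ beyond the spread (0.10 ± 0.26, adjusted p = 0.791), with 34.7 and 29.8 CPM against 17.2 CPM. Gata1, the erythroid master factor, had 1.5 and 0.218 CPM against 158 CPM (-8.21 ± 0.63), and Gata2 had 31.6 and 30.2 CPM against 0.582 CPM (4.81 ± 0.72). Dll4 had 0 UMIs in the globin gate, which made it at least 42.1-fold higher in endothelial barcodes of replicate 2 by a floor of 3 counts over the class sum.

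Against the Tbx4 gate, 2195 of 14157 genes were higher (15.5%) and 1306 lower (9.23%, 24.7% in either direction). Etv2 did not pass the test here, with 44.1 and 65.9 CPM in endothelial barcodes and 53.6 and 17.8 CPM in the Tbx4 gate (0.59 ± 0.38, adjusted p = 0.305), although it did without a filter on low counts (adjusted p = 0.00804). The classes overlapped between libraries for Etv2. Kdr differed by less than against all other barcodes, with 257 and 465 CPM against 120 and 99.8 CPM (1.70 ± 0.21, adjusted p = 0.000864). Tie1 and Cd34 stayed far apart, at 7.98 ± 0.29 and 7.76 ± 0.29. Of 18 posterior Hox genes 15 were lower and 0 higher. Hoxa11 had 2.25 and 1.09 CPM against 38.8 and 49.6 CPM (-4.34 ± 0.61, adjusted p = 0.00179), and Hoxa10 had 4.83 and 9.57 CPM against 78.8 and 114 CPM (-3.79 ± 0.57). Of 12 lateral plate factors 10 were lower. Vegfa was lower as well, with 24.6 and 19.1 CPM against 76.4 and 75 CPM (-1.65 ± 0.18, adjusted p = 0.000548). Gja5 had 0 UMIs in the Tbx4 gate and was at least 89.3-fold higher in endothelial barcodes, by 3 counts over both libraries.

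Against the Foxf1 gate, 2458 of 14156 genes were higher (17.4%) and 1673 lower (11.8%, 29.2% in either direction). Kdr had 257 and 465 CPM in endothelial barcodes, against 49.1 and 61.3 CPM (2.76 ± 0.20, adjusted p = 5.40e-05). Etv2 was higher, against 18 and 17.6 CPM (1.69 ± 0.36, adjusted p = 0.0109), a call lost with DESeq2 and without library as a block. Of 12 listed lateral plate factors, 11 were tested, of which 6 were lower and 0 higher, and Hand1 and Gata6 were among those that did not pass. Osr1 showed the largest decrease of the rule, with 10.9 and 3.05 CPM against 91.0 and 84.1 CPM (-3.34 ± 0.31, adjusted p = 0.000169). Podxl, the podocalyxin gene of the endothelial surface list, had 116 and 93.3 CPM against 115 and 90.2 CPM and did not pass the test (0.12 ± 0.08, adjusted p = 0.325). The Podxl levels of the classes lay closer to each other within a library than the libraries did.

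**Figure D4:**
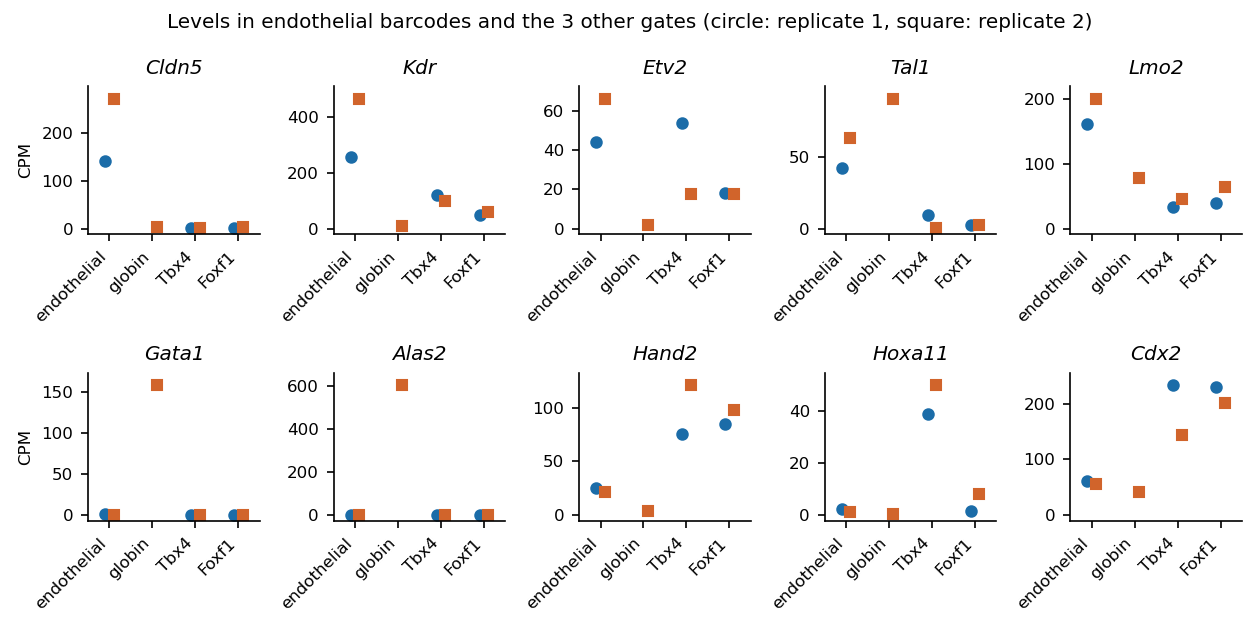
CPM (vertical axes, from 0) of 10 genes in endothelial, globin-gate, Tbx4-gate and Foxf1-gate barcodes (left to right), 1 point per library (circles replicate 1, squares replicate 2). The globin gate has replicate 2 only. Tal1 is highest in the globin gate, and the Etv2 level of the Tbx4 gate in replicate 1 (53.6 CPM) lies between the endothelial levels (44.1 and 65.9 CPM).

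Endothelial barcodes were then divided by Etv2 at an equal depth of 5000 UMIs, which left out 14 and 10 shallower ones. Etv2 was detected in 69 and 56 barcodes and not detected in 386 and 218, and a barcode without a UMI may still express the gene. In this division the fitted spread (dispersion 0.00078) lay near counting error, so SE and p-values cover little of the difference between libraries. In the next division the fitted spread was larger (0.0083, against 0.011 for the comparison with other barcodes), but it also rests on 2 libraries. Library values are given beside SE and p-values of both divisions for many of the named genes, but not for all. The selecting genes and the embryonic globins stayed in the fits of both divisions and in the counts over all genes, but in no list count, and nothing is read from them. Of 7560 genes tested, 134 were higher (1.77%) and 196 lower (2.59%, 4.37% in either direction) in Etv2-detected barcodes. This count depended on the method: DESeq2 called 5 higher and 14 lower, and edgeR without library as a block called 0, with 505 genes at an unadjusted p under 0.05.

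Of 19 endothelial transcription factors tested, 6 were higher where Etv2 was detected, 1 was lower and 12 did not pass, among them Lyl1 (-0.15 ± 0.40). Of 7 genes of the receptor list 3 were higher, 0 lower and 4 did not pass, and the list's median was -0.15. The largest change of that list was the decrease of Ptprb, which just missed the threshold (-1.30 ± 0.43, adjusted p = 0.0503). The haemogenic and blood progenitor list had 0 calls among 3 tested genes, with Itga2b at -0.33 ± 0.39, Cbfa2t3 at -0.59 ± 0.46 and Kit at 0.52 ± 0.23. Tal1 had 87.0 and 139 CPM in Etv2-detected barcodes, against 33.7 and 44.0 CPM in undetected ones (1.49 ± 0.26, adjusted p = 9.63e-07). Hhex, a homeobox factor of early endothelium and endoderm, had 203 and 164 CPM against 71.0 and 62.4 CPM (1.45 ± 0.20, adjusted p = 5.34e-11). Kdr had 423 and 818 CPM against 258 and 417 CPM (0.84 ± 0.09, adjusted p = 2.03e-16). Levels in Etv2-detected barcodes exceeded those in undetected ones for all 3 genes, with no overlap between libraries. Hhex and Kdr also passed with DESeq2 (adjusted p = 0.0437 and 0.0274), and Tal1 did not (0.313). Gata2, Lmo2 and Fli1 were higher by 1.35 ± 0.32, 0.74 ± 0.14 and 0.70 ± 0.13, and the receptor Nrp2 by 0.97 ± 0.19. Outside the lists, the rule named Hopx, a homeodomain protein gene, with 92.8 and 71.4 CPM against 16.1 and 18.3 CPM (2.27 ± 0.33), the metalloproteinase Mmp9 with 40.6 and 182 CPM against 8.29 and 54.1 CPM (1.85 ± 0.28), and Tbx3 with 20.3 and 35.7 CPM against 5.18 and 2.75 CPM (2.60 ± 0.57). For Tbx3 the difference was 1.08 at 8000 UMIs per barcode and did not pass there (adjusted p = 0.0769). Tal1 was detected in 31.9% and 53.6% of Etv2-detected barcodes, against 14.0% and 19.3% of undetected ones, and Hhex in 56.5% and 55.4%, against 25.6% and 24.8%.

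Of 20 surface and junction genes tested, 0 were higher and 5 were lower, with a median of -0.42 against 0.00 over all genes. Emcn had 20.3 and 32.1 CPM in Etv2-detected barcodes, against 42.0 and 120 CPM in undetected ones (-1.59 ± 0.34, adjusted p = 0.000333). Cd34 had 136 and 121 CPM against 218 and 214 CPM (-0.76 ± 0.16), and Plvap, a protein of vessel fenestrae, had 551 and 475 CPM against 680 and 695 CPM (-0.43 ± 0.08). Sparc had 380 and 282 CPM against 792 and 671 CPM (-1.16 ± 0.09, adjusted p = 2.72e-31, DESeq2 adjusted p = 9.43e-05). Etv2-detected barcodes were lower than undetected ones in both libraries for these 4 genes. Of 13 matrix genes tested, 4 were lower, 1 was higher and 8 did not pass. Fn1 was the higher gene (0.29 ± 0.06, adjusted p = 0.000149), and Lama4 had a log2 fold change of 0.74 ± 0.32 that did not pass. Besides Sparc, Col4a1, Col4a2 and Col18a1 were lower by -0.61 ± 0.12, -1.03 ± 0.20 and -0.77 ± 0.14. Of 10 arterial and Notch genes tested, 0 were higher, 2 were lower and 8 did not pass. The log2 fold changes of that list lay between -1.78 and 0.32, with a median of -0.83. Its lower genes were Efnb2 and Gja4, by -1.29 ± 0.36 and -0.71 ± 0.21. Efnb2 had 11.6 and 42.9 CPM against 61.1 and 62.4 CPM. Gja4 had 101 and 67.9 CPM against 101 and 192 CPM, so its call rested on replicate 2. At 8000 UMIs per barcode Gja4 differed by -0.18 and did not pass (adjusted p = 0.632). Klf2, a factor induced by blood flow, had 20.3 and 0 CPM against 19.7 and 87.2 CPM (-2.12 ± 0.47), so its call rested on replicate 2. Cell cycle lists had 0 calls in either direction among 13 and 14 tested genes.

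Of 5 lateral plate factors tested, 1 was higher (Tbx3, above), 1 was lower (Hand1) and 3 did not pass. Postn, a matrix gene of mesenchyme, had 2.90 and 3.57 CPM in Etv2-detected barcodes, against 74.6 and 39.5 CPM in undetected ones (-4.16 ± 0.61), and Hand1 had 43.5 and 25 CPM against 196 and 67.9 CPM (-1.99 ± 0.26). Scrublet called 8.70% and 3.57% of Etv2-detected barcodes and 20.5% and 6.42% of undetected ones. With its calls removed, 136 genes were higher and 220 lower. With at least 6 UMIs of the selecting genes, 36 were higher and 83 lower, and Lmo2 and Gata2 no longer passed (adjusted p = 0.313 and 0.0563).

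**Figure D5:**
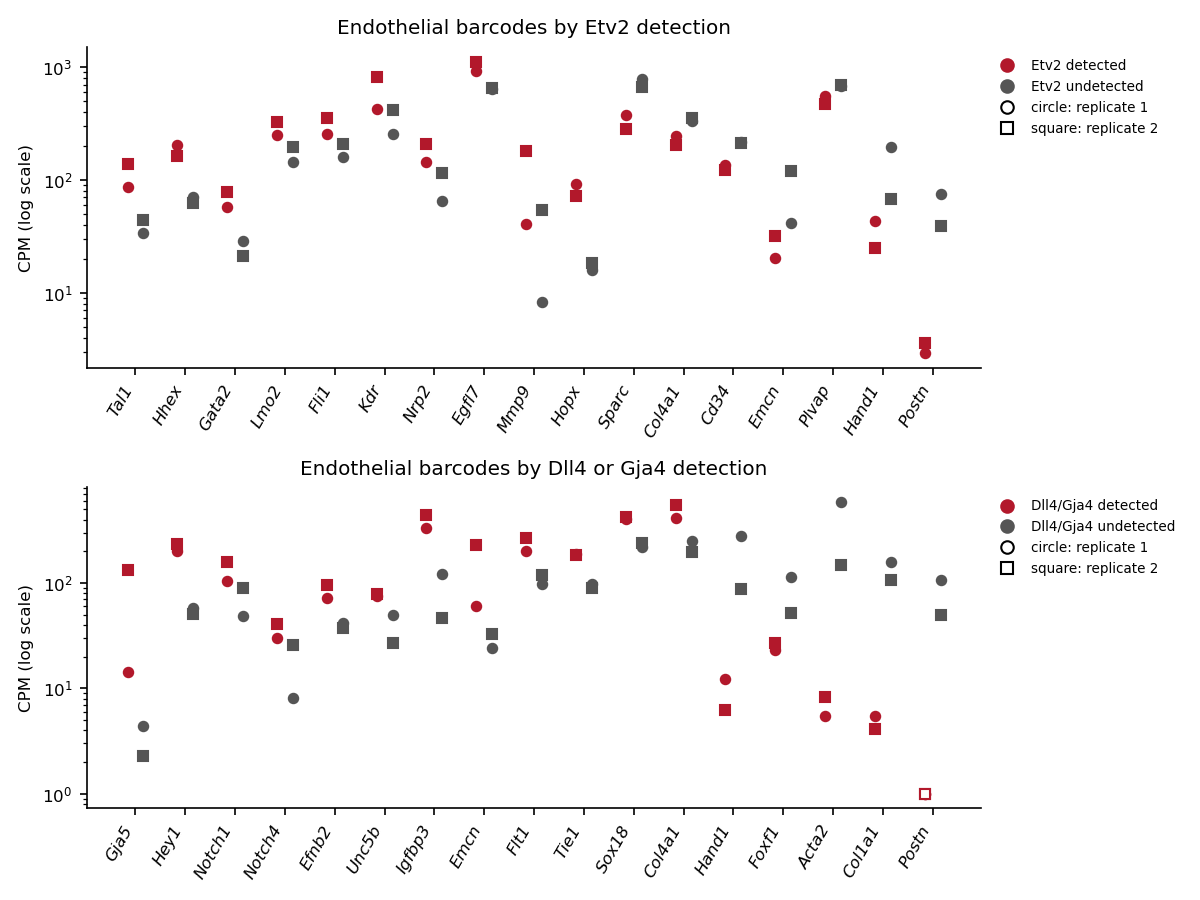
CPM (vertical axes, log scale) at 5000 UMIs per barcode of selected genes in endothelial barcodes with (red, left) and without (grey, right) a UMI of Etv2 (top) or of Dll4 or Gja4 (bottom), in replicate 1 (circles) and replicate 2 (squares). An open symbol is a value of 0 drawn at 1 CPM. Tal1 and Hhex lie higher with Etv2, Hey1 and Gja5 higher with Dll4 or Gja4, and Acta2 and Postn lower with either arterial gene.

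The arterial genes Dll4 and Gja4 gave a second division. At 5000 UMIs, 181 and 97 barcodes held a UMI of either, and 274 and 177 held neither. Of 8075 genes tested, 216 were higher (2.67%) and 155 lower (1.92%, 4.59% in either direction) in the detected barcodes, against 6 and 14 with DESeq2 and 7 and 17 without library as a block. Gja4 itself was found in 33.7% and 63.4% of Dll4-detected barcodes, against 22.6% and 24.0% of those without Dll4.

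Further arterial and Notch genes were higher, with 7 of 12 tested higher and 0 lower and a median of 0.90 against 0.00 over all genes. Hey1 had 202 and 233 CPM in Dll4/Gja4-detected barcodes, against 58.4 and 50.8 CPM in undetected ones (1.99 ± 0.19, adjusted p = 2.64e-22, DESeq2 adjusted p = 0.000122). Gja5 had 14.4 and 132 CPM against 4.38 and 2.26 CPM (3.96 ± 0.45, adjusted p = 5.37e-16). The Gja5 difference was 1.41 in replicate 1 alone and 4.73 in replicate 2 alone, so its size rested on replicate 2, where 19.6% of detected and 1.13% of undetected barcodes held it. Notch1, Notch4, Efnb2 and Unc5b were higher by 0.99 ± 0.20, 1.24 ± 0.37, 1.06 ± 0.24 and 0.96 ± 0.25. With at least 6 UMIs of the selecting genes, Notch1, Notch4 and Efnb2 did not pass (adjusted p = 0.624, 0.620 and 0.0674). Igfbp3, an insulin-like growth factor binding protein, had 334 and 439 CPM against 121 and 46.3 CPM (2.19 ± 0.16), and von Willebrand factor (Vwf) had 39.8 and 63.9 CPM against 8.76 and 15.8 CPM (2.11 ± 0.36). Klf2 had 17.7 and 167 CPM against 21.2 and 15.8 CPM, a difference of replicate 2 only.

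General endothelial genes were higher in the same barcodes. Of 20 surface and junction genes, 14 were higher and 1 lower, with a median of 0.85, and 10 of 20 endothelial transcription factors and 4 of 7 receptors were higher. With at least 6 UMIs of the selecting genes, only 29 of 7151 genes were higher and 21 lower over all genes. That limit left 158 and 75 detected and 169 and 101 undetected barcodes in replicates 1 and 2. The list counts were not repeated there. Emcn had 60.8 and 229 CPM against 24.1 and 32.8 CPM (2.17 ± 0.23, adjusted p = 7.65e-18), and Flt1 had 202 and 268 CPM against 97.8 and 120 CPM (1.13 ± 0.17). Podxl was the lower surface gene, with 50.8 and 76.3 CPM against 152 and 101 CPM (-1.06 ± 0.21), and its call was lost with at least 6 UMIs of the selecting genes. Venous genes showed 1 call among 7 tested, Flt4, and Etv2 had 37.6 and 35.1 CPM against 43.8 and 78.0 CPM without passing (adjusted p = 0.278). Aplnr was detected in 48.6% and 40.2% of detected barcodes, against 40.5% and 55.9% of undetected ones, so its direction differed between libraries.

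Mesenchymal and lateral plate genes were lower in the barcodes with Dll4 or Gja4, with 4 of 5 tested lateral plate factors lower and 0 higher. Hand1 had 12.2 and 6.19 CPM in Dll4/Gja4-detected barcodes, against 279 and 88.1 CPM in undetected ones (-4.34 ± 0.30, adjusted p = 1.07e-44), and was found in 5.52% and 3.09% of them, against 36.1% and 14.7%. Smooth muscle actin (Acta2) had 5.52 and 8.25 CPM against 591 and 147 CPM (-5.96 ± 0.29, adjusted p = 3.37e-89), and Col1a1 had 5.52 and 4.12 CPM against 158 and 106 CPM (-4.73 ± 0.34). Postn had 0 UMIs in detected barcodes of both libraries, against 106 and 49.7 CPM, and was at least 38.8-fold lower by 3 counts over both. The groups lay far apart in both libraries for all 4 genes. Up to 29 Acta2 UMIs of 5000 were found in a single undetected barcode. Scrublet called 15.5% and 1.03% of detected barcodes and 20.8% and 8.47% of undetected ones. With its calls removed Hand1 differed by -5.54, and with at least 6 UMIs of the selecting genes by -3.32. The part of doublets and of mesenchymal cells in this result was not tested.

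Runx1 was found in 5 of 181 and 8 of 97 detected barcodes, against 2.55% and 0% of undetected ones, and in replicate 2 all 8 Runx1 barcodes held Dll4 or Gja4. No test was made on these Runx1 counts.

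The endothelial barcodes of the libraries differed from each other in several genes. Lyve1 was 6.96-fold higher in replicate 1 than in replicate 2, and 1.53-fold higher in other barcodes. Clec14a, a C-type lectin of endothelium, had 5.08 CPM in replicate 1 and 34.6 CPM in replicate 2, and Gja5 had 9.24 and 38.5 CPM. Hoxc9 was 3.66-fold higher in replicate 2 both in endothelial barcodes and in others, and Nr2f2 was 4.36-fold higher in replicate 2 in endothelial barcodes and 2.5-fold in others. Hox genes did not all do so: Hoxa11 was 2.07-fold higher in replicate 1 in endothelial barcodes and 1.53-fold higher in replicate 2 in others. In endothelial barcodes, however, Hoxa11 had only 27 UMIs in replicate 1 and 5 in replicate 2. With 1 library on each side these differences have no replicate check.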

How the data were processed

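Droplet single-cell RNA libraries of 2 replicates were analysed. The deposited matrices hold UMI counts per gene and barcode, made by the authors with Cell Ranger 6.1.1 and genome build mm10, per the submitters' processing notes. They hold 30449 and 18245 barcodes with 295866003 and 150964773 UMIs, of which 11228 and 8322 barcodes were kept. Counts were summed per class and library, and CPM are these sums per 1000000 UMIs. Classes were compared with edgeR 4.0.16 (quasi-likelihood F test, TMM scaling, filterByExpr, library as a block, Benjamini-Hochberg adjustment over all genes tested, threshold 0.05). A prior count of 2 was used only for the fold changes of each library alone. The block follows from the design, since both classes come from each library. SE is the size of the log2 fold change divided by the square root of F. Genes that define the classes of a comparison were not tested in it. Within endothelial barcodes the genes that chose them stayed in the fit. Thinning used seed 11. Scrublet in Scanpy 1.11.5 scored barcodes per library at 0.8% expected doublets per 1000 barcodes.

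Named genes were, per comparison, the 15 highest and 10 lowest fold changes among genes that passed, had 1 sign in both libraries and at least 20 CPM in the higher class, besides 269 genes in 20 lists. The cells, lists and tests were chosen with earlier results of these data known. Alternatives were RLE scaling, DESeq2 1.42.0, no filter, no block, each library alone, Scrublet calls removed, other limits on selecting UMIs and mitochondrial share, and other thinning. The limit of 6 UMIs within endothelial barcodes was added after seeing the data. Tested on simulated data with 200 changed genes, the comparison with other barcodes recovered 74.5% of genes changed 2-fold and 89.9% of those changed 4-fold. For the division by Etv2 these shares were 57.1% and 92.5%, and for that by Dll4 or Gja4 they were 51.6% and 91.8%. The simulated counts had the same spread for all genes, as fitted to each comparison. The shares thus do not cover a spread between libraries larger than the fitted one.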

Additional observations from a re-analysis of the deposited data

Results flagged for a closer look

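Both matrices hold a custom eGFP feature, although the labels give the embryos as wild type. Endothelial barcodes had 8.32 CPM of it in replicate 1 and 9.79 CPM in replicate 2, above the limits of 0.250 and 0.653 CPM that a count of 0 allows. Other kept barcodes had 4.51 and 3.58 CPM. The difference passed the test (log2 fold change 1.24 ± 0.22, adjusted p = 0.00381, edgeR's quasi-likelihood test, higher in endothelial barcodes of 2 of 2 libraries). The globin gate had 9.60 CPM, the Tbx4 gate 3.08 and 4.38 CPM and the Foxf1 gate 3.21 and 2.03 CPM. The source of these UMIs was not tested.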

How the results depend on the processing

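Against other kept barcodes, 1016 genes were higher and 442 lower without the replicate block, 1438 were lower with DESeq2 and 855 with at least 2 UMIs of the selecting genes. Against the globin gate, 1842 were higher and 1211 lower without the replicate block. Against the Tbx4 gate, 949 were higher and 299 lower without the block, 684 lower with DESeq2 and 741 with at least 2 UMIs. Against the Foxf1 gate, 1081 were higher and 328 lower without the block, 662 lower with DESeq2 and 712 with at least 2 UMIs. By Etv2, the higher and lower genes were 5 and 14 with DESeq2, 0 and 0 without the replicate block, 443 and 537 unthinned, 202 and 317 at 8000 UMIs and 36 and 83 with at least 6 UMIs, and 59 were higher with no filter. By Dll4 or Gja4, they were 6 and 14 with DESeq2, 7 and 17 without the replicate block, 377 and 345 unthinned, 439 and 356 at 8000 UMIs and 29 and 21 with at least 6 UMIs, and 107 were higher with Scrublet calls removed. The causes were not tested. Over 1130 values of 108 gene results, 1011 kept direction and side of the threshold, 104 lost their call, 5 gained one and 10 changed sign. Those that changed sign were Hand1 (-0.54 with at least 6 UMIs), Nr2f2 (0.043 with mitochondrial shares from 0), Itga2b against the globin gate (-0.83 with at least 2 UMIs) and Podxl against the Foxf1 gate (-0.29 with at least 6 UMIs). The others changed sign between replicate 1 alone and replicate 2 alone: Klf4 (-0.39 and 1.78), Tcf4 (0.30 and -0.0032), Nr2f2 (-0.49 and 0.20), Etv2 against the Tbx4 gate (-0.17 and 1.93), and Klf2 by Etv2 (0.016 and -4.95) and by Dll4 or Gja4 (-0.22 and 3.21). A library alone gave fold changes with no test, and the globin gate gave none without replicate 2. Depth limits genes near 1 UMI per barcode, and a barcode without a UMI may express the gene.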

Other observations

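Xist had 85.3 CPM in endothelial barcodes of replicate 1 and 0 in those of replicate 2, against 126 and 0.250 CPM in other barcodes. Ddx3y, a Y-linked gene, had 11.2 and 30.9 CPM in endothelial barcodes, against 9.53 and 23.9 CPM in others. Primordial germ cell markers summed to 15.1 and 11.1 CPM in endothelial barcodes, against 43.4 and 4.40 CPM in others, so their direction differed between libraries.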
